A study of Mus musculus with 6 samples.

Results

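Some CpG positions of mouse testis DNA did not take graded methylation levels but jumped between about 0%, 50% and 100% from one mouse to the next. Members of this class were the positions on chromosomes 1 to 19 that had at least 20 reads in each of 6 libraries, with every library within 10 percentage points of 0, 50 or 100% and a span (highest minus lowest library) of at least 40 points. The rule was met by 1150 of 716499 positions with enough reads, or 0.161%. Counting the facing cytosines of the 2 strands as 1 CpG, these were 957 of 471064 measured CpGs. In 764 of them a single strand met the rule and in 193 both did, and all 193 had the same step in every library on both strands. Members were thus chosen by their levels in all 6 libraries, and nothing is read from a test on these levels.

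The DNA came from the right testes of 6 male mice of the KM (Kunming) strain, an outbred stock, sampled at body maturity. Of these, 3 had lost the left testis to surgery before puberty (hemicastrated), and the other 3 had been sham-operated at the same time. The labels give no exact age and no transgene or mutation, and they do not say whether any of the mice were littermates. Each mouse gave 1 library of reduced representation bisulfite sequencing, a method that cuts DNA at CCGG with MspI, keeps short fragments and reads each cytosine as methylated or unmethylated after bisulfite treatment. The 6 libraries held 64504011 to 78630942 calls, and between 0.478% and 0.617% of calls on mitochondrial DNA read as methylated. As a check of the tissue, 5 of 12 germ cell genes had measured CpGs in the promoter window defined below. Their mean levels ran from 14.5% at Dazl, an RNA-binding protein of germ cells, to 23.9% at Hormad1, a protein of the meiotic chromosome axis. As background, the starts of these genes are methylated in somatic cells and unmethylated in germ cells.

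Bisulfite turns an unmethylated cytosine into a base that is read as thymine, while a methylated cytosine is still read as cytosine. A DNA variant that replaces the cytosine of a CpG by thymine is therefore counted as an unmethylated read, and a mouse that carries such a variant on one of its chromosome copies shows a mixture. Methylation that differs between the parental copies, as at imprinted genes, also gives intermediate levels. Levels from whole tissue cannot tell apart a CpG methylated on one copy in each cell from one methylated on both copies in some of the cells. No genotypes of these mice were used here, and whether a given member marks a DNA variant was not tested.

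Of all measured positions, 100918 lay in RefSeq promoter windows (250 bases before to 50 after a gene's start, build GRCm38.p6), and 6 of those positions were members, or 0.00595%. Their surroundings in the reference build are printed, 5′ to 3′ on the gene's strand, with the member CpG in capitals. The letters are those of the reference, and the bases of these mice were not examined. The stretches are chr1:170308800-170308846 (+) for Spata46, a gene of sperm head formation, chr3:88616028-88616119 (+) for Arhgef2, a guanine nucleotide exchange factor that binds microtubules, and chr4:140665959-140666050 (-) for Arhgef10l, another guanine nucleotide exchange factor. The others are chr9:89067012-89067103 (+) for the long noncoding RNA gene Gm24463, chr9:96752804-96752886 (-) for E030011O05Rik and chr12:86734240-86734331 (+) for Lrrc74a, which encodes a leucine-rich repeat protein.
Spata46: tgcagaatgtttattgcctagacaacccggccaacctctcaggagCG
Arhgef2: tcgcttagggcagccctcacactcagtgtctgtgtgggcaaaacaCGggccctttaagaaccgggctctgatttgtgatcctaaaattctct
Arhgef10l: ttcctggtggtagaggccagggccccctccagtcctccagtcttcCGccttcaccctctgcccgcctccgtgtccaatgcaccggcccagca
Gm24463: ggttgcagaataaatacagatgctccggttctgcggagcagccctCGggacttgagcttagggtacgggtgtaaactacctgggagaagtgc
E030011O05Rik: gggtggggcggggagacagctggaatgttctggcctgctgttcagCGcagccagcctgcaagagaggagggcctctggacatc
Lrrc74a: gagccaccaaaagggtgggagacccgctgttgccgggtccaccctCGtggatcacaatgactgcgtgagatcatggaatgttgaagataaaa

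Below, values in a list of 6 are in the order hemicastrated mice 1, 2 and 3, then sham mice 1, 2 and 3. At Spata46, 26 bases into the transcribed side, the levels were 0, 41.2, 50.4, 93.5, 0 and 46.0%, so all 3 steps occurred and each group held an unmethylated mouse. At Arhgef10l, 100 bases before the start, they were 94.1, 94.6, 44.2, 44.8, 41.0 and 0%. At Lrrc74a, 84 bases before the start, they were 92.3, 92.6, 92.5, 43.2, 40 and 100%, with intermediate values in sham mice 1 and 2. At these 3 genes the other measured CpGs within 100 bp (3, 4 and 1 positions) did not follow the member's steps. Their mean level was 92.7, 88.6 and 95.5%, and it differed between the libraries at the highest and the lowest step by 2.33, -0.540 and -0.921 points. At Arhgef10l it still varied, from 79.8% in sham mouse 1 to 93.7% in sham mouse 2, both with an intermediate member.

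The other 3 stretches differed in this respect. At Arhgef2, 70 bases before the start, the member was at 0, 50, 90.7, 0, 95.2 and 90%, and its single measured neighbour followed it at 0, 44.2, 92, 0, 96.4 and 88%. At Gm24463, 163 bases before the start, the member was at 0, 0, 41.3, 0, 1.82 and 59.3%, and the mean of 4 neighbours was 1.22, 0, 44.8, 0, 0.918 and 70.8%. At E030011O05Rik, 10 bases before the start, the member was at 6.90, 40.5, 40.5, 4.55, 52.4 and 6.06% and the mean of 2 neighbours at 27.6, 46.95, 45.9, 13.6, 50 and 15.6%. In these stretches the neighbours were higher in the mice in which the member was higher, though at E030011O05Rik they stayed above it in the mice where it was near 0, whereas at Spata46, Arhgef10l and Lrrc74a the capital CG stood alone.

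Positions with a span of 40 points or more numbered 6414, or 0.895% of those measured, and the members were 17.9% of them. Over all 6414, levels gathered near the 3 steps without any rule on the steps: 11.3% of the library levels lay from 0 to 5%, 8.64% from 50 to 55% and 7.73% from 95 to 100%, against 1.45% from 5 to 10% and 3.21% from 75 to 80%. Over all measured positions, 63.8% of levels lay from 0 to 5%, 0.431% from 50 to 55% and 10.6% from 95 to 100%. Of these 3 bins, only that from 50 to 55% thus held a larger share at the positions with a wide span. The members' share of these positions was 11.8% (380 of 3207) where the lowest library had 20 to 39 reads, 22.3% (431 of 1931) at 40 to 79 reads and 26.6% (339 of 1276) at 80 or more. Counting noise alone takes some positions out of the windows, since a true level of 50% falls within 10 points in 73.7% of draws at 20 reads and in 91.4% at 67 reads, the median of measured positions and libraries, by the binomial distribution. The least covered library of a member had between 20 and 184 reads, with a median of 55.

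**Figure D1:**
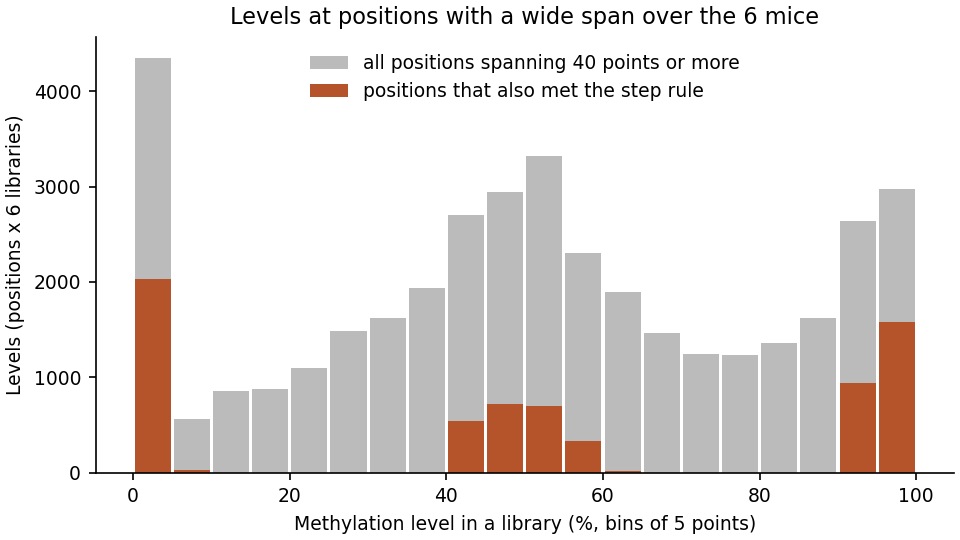
The x axis is the methylation level of a library in bins of 5 points and the y axis the number of levels (positions times 6 libraries), in grey for all 6414 positions spanning at least 40 points and in orange for the 1150 members. Grey bars peak at 0 to 5%, near 50% and above 90%, and are lowest from 5 to 10%.

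Within the members, the step near 0 was sharper than the others. Its 2060 levels had a median of 0% (interquartile range 0 to 0.725), the 2318 intermediate levels a median of 49.0% (45.3 to 53.1), and the 2522 high levels a median of 95.9% (93.9 to 97.7). At the edges of the rule, position 139694713 of chromosome 4 was just inside with a span of 40 points, at 60, 100, 100, 100, 92.7 and 94.7%. Position 28007869 of chromosome 17, inside Anks1, was just outside with a span of 39.9 points, at 54.8, 91.9, 93.02, 93.02, 94.7 and 91.5%. A position in Osbpl6 (76472397 of chromosome 2) was left out because sham mouse 2 was 10.1 points from a step, at 89.9%.

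Of the possible combinations of steps, 3 were common. Steps of 50 and 100 were found at 366 CpGs (38.2%, Wilson 95% interval 35.2 to 41.4), all 3 steps at 283 (29.6%, 26.8 to 32.5) and steps of 0 and 50 at 279 (29.2%, 26.4 to 32.1). Only 0 and 100, with no mouse in between, occurred at 29 CpGs (3.03%, 2.12 to 4.32). These intervals, and those below, treat CpGs as independent, although many share a pattern with the member next to them. An intermediate level in a single mouse was the most frequent arrangement, at 366 CpGs, followed by 2 mice at 268, 3 at 155, 4 at 97 and 5 at 42. The 957 CpGs showed 309 different patterns over the 6 mice, of which 162 were seen once.

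The deepest members with both strands and 3 or more measured neighbours show what each class looks like. In Vdr, the vitamin D receptor gene (position 97857515 of chromosome 15), levels were 42.1, 93.8, 95.1, 95, 46.8 and 94.3%, and in Zfp574, a zinc finger gene (25081698 of chromosome 7), 52.2, 98.4, 95.3, 97.8, 97.3 and 97.7%. Both have steps of 50 and 100, with 1 intermediate mouse in each group at Vdr and only hemicastrated mouse 1 intermediate at Zfp574. A pair of CpGs 8 bases apart outside genes (129935040 and 129935048 of chromosome 6) was intermediate in hemicastrated mice 1 and 2, at 44.2 and 43.8% for the first and 43.2 and 46.6% for the second. The 4 other mice were between 92.9 and 99.4% there.

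Among CpGs with steps of 0 and 50, Cep89, a centrosome gene (35412615 of chromosome 7), was at 0, 53.5, 53.9, 41.2, 0 and 49.7%. Slc26a7, an anion exchanger gene (14582529 of chromosome 4), was at 41.1, 47.2, 47.8, 0, 45.1 and 49.7%, with sham mouse 1 the only unmethylated animal. Tpsab1, annotated here as a transcribed pseudogene of a mast cell tryptase (25343441 of chromosome 17), was at 54.6% in hemicastrated mouse 1 and 0% in the other 5. The lncRNA gene F730043M19Rik (33133807 of chromosome 12) had the same form with sham mouse 2, at 48.5%, against 0 to 0.552% in the other mice.

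Members with all 3 steps included Ddost, which encodes a subunit of the oligosaccharyltransferase that attaches glycans to proteins (138310474 of chromosome 4). It was at 0, 96.9, 46.4, 96.3, 98.3 and 53.0%. Ston2, a gene of endocytosis, held 2 CpGs 13 bases apart (91773781 and 91773794 of chromosome 12) that went together: the first was at 53.6, 0.585, 56.3, 57.3, 97.2 and 0%, the second at 54.2, 0.585, 55.6, 59.5, 98.9 and 1.47%. Position 10790061 of chromosome 3, outside genes, was at 43.2, 0, 51.4, 93.9, 90.4 and 92.9%.

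In the rare class without an intermediate mouse, the odd animal differed from CpG to CpG. Sgsm2, a regulator of small G proteins (74867697 of chromosome 11), was at 93.9% in sham mouse 2 and between 0 and 2.58% in the others. Cmya5, a muscle protein gene (93041753 of chromosome 13), was at 94.3% in hemicastrated mouse 3 and between 0 and 2.48% in the others. Lrp2, which encodes the endocytic receptor megalin (69459605 of chromosome 2), was at 0% in hemicastrated mouse 3 and between 96.9 and 100% elsewhere. Position 79955014 of chromosome 8, outside genes, was at 1.08% in hemicastrated mouse 1 and between 92.0 and 98.6% elsewhere.

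Mice differed in how often they stood alone. At 346 CpGs (36.2%) a single library had a step that the other 5 did not share, and hemicastrated mouse 1 was that library at 117 of them, against 50 and 45 for hemicastrated mice 2 and 3 and 42, 53 and 39 for the sham mice. It was at the intermediate step at 108 of its 117. Its share of intermediate levels over the 957 CpGs was 39.7%, against 29.8% in hemicastrated mouse 2, 33.8% in hemicastrated mouse 3 and 34.3, 37.9 and 29.9% in the sham mice. Pairs of mice with hemicastrated mouse 1 had the same step at 38.8 to 45.4% of CpGs, and the 10 pairs without it at 48.6 to 51.6%. The pairs within the hemicastrated group averaged 46.2%, within the sham group 50.4% and between groups 48.2%.

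The solitary CpGs of hemicastrated mouse 1 were unevenly placed: 39 lay on chromosome 17, 27 on chromosome 4 and 51 on the other chromosomes. On chromosome 17, its level was intermediate at all 39, while the other 5 mice were at 100 at 31 and at 0 at 8. They ran from position 5549543 to 56598978, with 35 in the first 40 Mb. On chromosome 4, 25 of the 27 lay beyond 130 Mb. These limits were chosen after the positions were seen. With members of every pattern counted, chromosome 17 had 94 (4.14 per 1000 measured CpGs) and chromosome 4 had 105 (2.98), against 2.03 over all 19 chromosomes and 0.575 on chromosome 16, where 8 were found. The part of chromosome 4 beyond 130 Mb had 70 members (5.22 per 1000) and the rest 35 (1.61). For the first 40 Mb of chromosome 17 the figures were 58 (4.62 per 1000), and for the rest 36 (3.55).

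Neighbouring members along a chromosome often had the identical pattern over the 6 mice. Of 938 pairs of adjacent members, 251 matched in all 6 libraries (26.8%, Wilson 95% interval 24.0 to 29.7; pairs on a chromosome share CpGs, so the interval covers counting error only). Runs, meaning 2 or more consecutive members with one pattern, numbered 154 and held 405 CpGs (42.3%). Of these, 102 had 2 CpGs and 52 had 3 or more. The median span was 131.5 kb, with 31 runs inside 100 bp (66 CpGs) and 83 runs longer than 100 kb (247 CpGs). The gaps in a run can be wide: 3 CpGs on chromosome 10 with sham mouse 1 alone at the intermediate step spanned 13735 kb. Levels of runs are given as means over the strands of a CpG that met the rule. Levels of single CpGs are those of the member strand with more reads in its least covered library.

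The run with the most CpGs lay on chromosome 17 from 26634198 to 28785239, with 11 CpGs over 2151 kb. In it, hemicastrated mouse 1 was between 41.9 and 56.6% and the other 5 mice between 90.7 and 100%. Inside genes lay 10 of the CpGs, in Ergic1 (transport between endoplasmic reticulum and Golgi), Itpr3 (an inositol trisphosphate receptor that releases calcium), Nudt3, Pacsin1 (endocytosis), Anks1 and Slc26a8 (an anion transporter of sperm). The position just outside the rule in Anks1, described above, lies within this run and had the same form. Nearer the start of the chromosome, from 24239799 to 25037202, 5 CpGs in Ccnf (cyclin F), Abca3 (a lipid transporter), Caskin1 and Ift140 (transport along cilia) had the mirrored pattern. There hemicastrated mouse 1 was between 40 and 56.1% and the other mice between 0 and 6.98%.

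On chromosome 12, 9 CpGs from 112141667 to 113190326 (1049 kb), including 1 in the formin gene Inf2, separated hemicastrated mouse 3, at 0 to 1.31%, from the other 5, at 40.7 to 59.6%. On chromosome 4, 7 CpGs from 137938822 to 138901768 (963 kb) in and near Ece1 (endothelin-converting enzyme), Ddost, Pla2g5 (a secreted phospholipase) and Otud3 (a deubiquitinase) had all 3 steps. Hemicastrated mouse 1 was at 0 to 3.17%, hemicastrated mouse 3 at 44.7 to 59.5% and sham mouse 3 at 44.6 to 52.2%, and the remaining mice were between 92.3 and 98.5%. The Ddost CpG given as an example of its class is the second of this run, where its mean over strands was 47.8% in sham mouse 3.

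Chromosome 10 held both other runs of the 6 with the most CpGs. From 80003731 to 81325083 (1321 kb), 6 CpGs including ones in Abca7 (a lipid transporter), Csnk1g2, Matk, Tjp3 (a tight junction protein) and Cactin had sham mouse 1 at 44.6 to 55.4% and the others at 90.9 to 100%. From 61248884 to 62283885 (1035 kb), 6 CpGs including ones in Adamts14, Lrrc20, Col13a1, Tspan15 and Hk1 (hexokinase) had hemicastrated mouse 1 at 91.9 to 96.0%. Sham mice 1 and 3 were at 47.9 to 55.6% and 44 to 53.3% there, and the 3 remaining mice at 0 to 2.08%. In none of these 6 runs did the steps separate the 3 hemicastrated from the 3 sham mice.

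**Figure D2:**
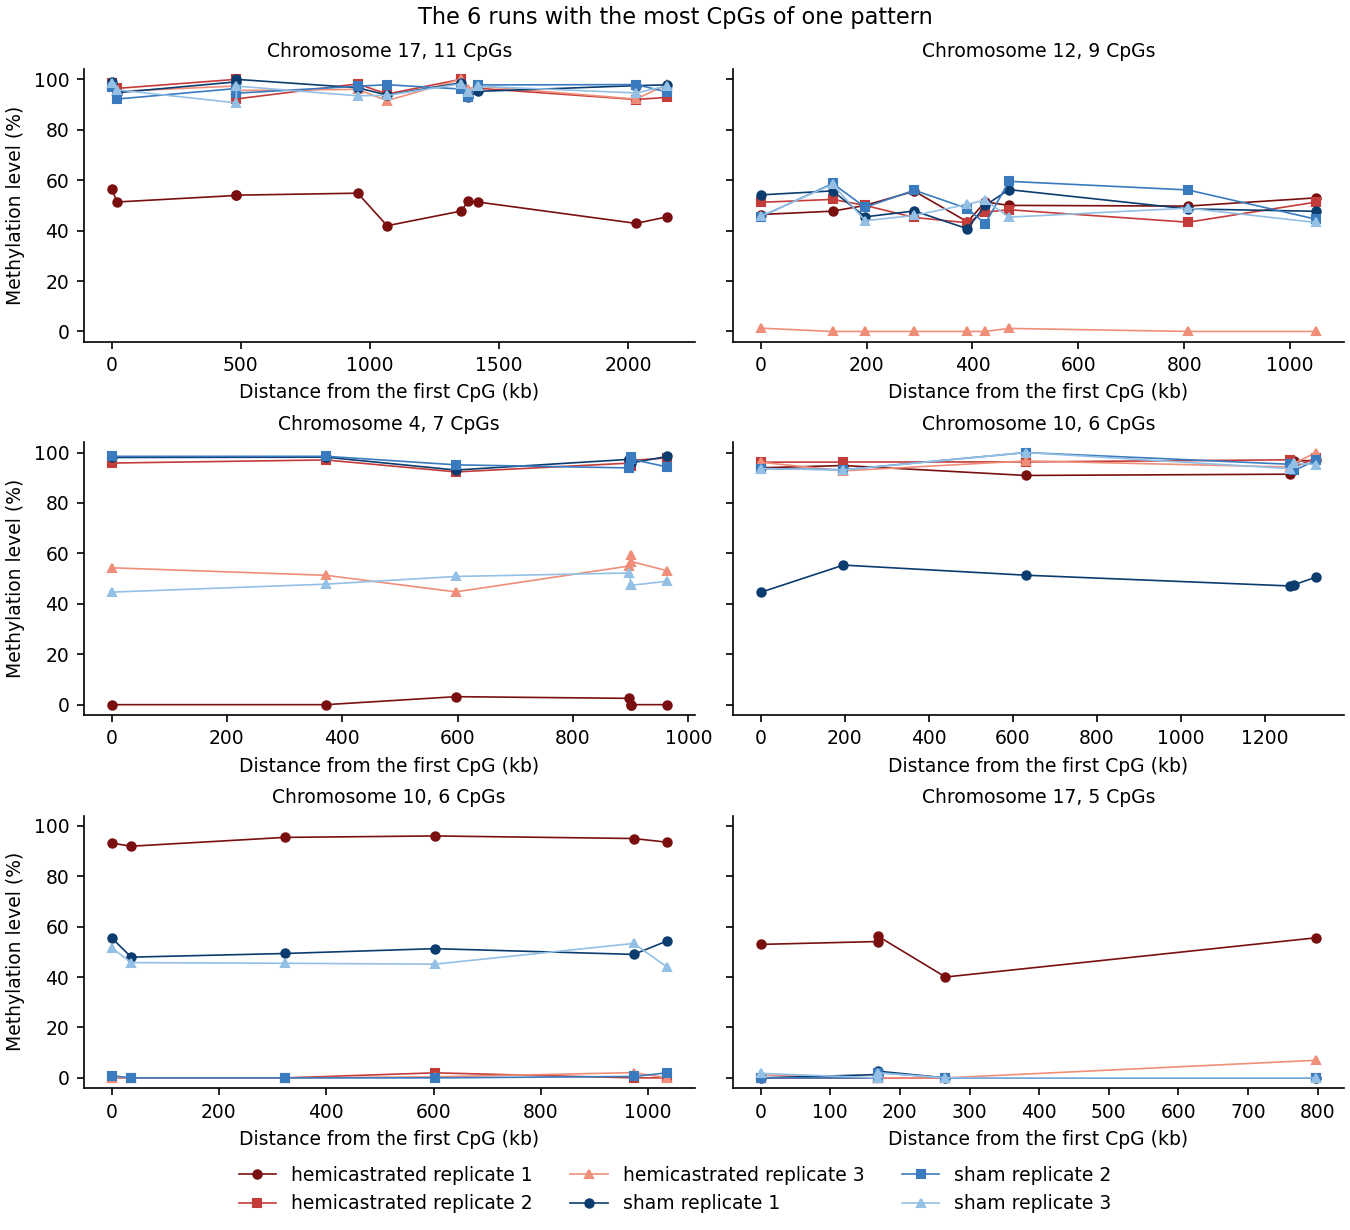
Each panel is 1 of the 6 runs with the most CpGs, with the distance from the run's first CpG in kb on the x axis, the methylation level in percent on the y axis and 1 line per mouse (red shades hemicastrated, blue shades sham). Lines stay near 0, 50 or 100% because a run is made of members with one pattern, and positions between the members are not drawn. In the run of 11 CpGs on chromosome 17, hemicastrated mouse 1 is between 41.9 and 56.6% and the others are above 90%.

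The end of chromosome 4 beyond 130 Mb shows how runs follow each other, and the runs named next were picked after their values were seen. From 135704553 to 136995215, 4 CpGs in Ifnlr1 (a receptor for interferon lambda) and Zbtb40 had hemicastrated mouse 1 alone intermediate, at 40.8 to 46.3%, against 92.0 to 97.8% in the others. In the next, from 137239147 to 137559110 and mostly in Hspg2, the gene of the basement membrane proteoglycan perlecan, hemicastrated mouse 2 was intermediate as well, at 44.8 to 56.6%. The run through Ece1, Ddost and Otud3 came after these, with hemicastrated mouse 1 near 0. Further on, 5 CpGs from 140409090 to 140580492 in and near Arhgef10l had hemicastrated mouse 2 alone high, at 91.0 to 100%, and the other 5 mice between 40.8 and 58.2%. The promoter CpG of Arhgef10l printed above lies beyond these, had another pattern, and formed a run of 2 with a CpG 110.7 kb away.

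Hemicastrated mouse 1 stood alone again from 140912369 to 141219869, where 3 CpGs in Padi2, Sdhb (a subunit of succinate dehydrogenase) and Cplane2 had it at 45.2 to 54.9% and the others at 0 to 3.51%. From 141466117 to 141473571, 4 CpGs in Zbtb17 and Spen (a transcriptional repressor) had the mirrored form, with 44.9 to 48.7% against 90.7 to 100%. On this chromosome end the same mouse was thus intermediate while the other 5 were now all methylated, now all unmethylated, as on chromosome 17.

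Several 4-CpG and 5-CpG runs elsewhere had other mice apart, again named after their values were seen. On chromosome 5, from 112460552 to 112757512, 5 CpGs in Sez6l and Myo18b were at 45.2 to 57.1% in hemicastrated mouse 2 and at 40 to 53.5% in sham mice 1 and 2, against 0 to 3.85% in the rest. On chromosome 12, from 111199694 to 111424739, 4 CpGs in Traf3 (an adaptor of immune receptors), Cdc42bpb and Exoc3l4 had the identical pattern, although the 2 runs are on different chromosomes. On chromosome 15, from 86081946 to 86234563, 4 CpGs in Gramd4, Cerk (ceramide kinase) and Tbc1d22a were at 40.7 to 57.1% in sham mouse 1, 96.6 to 100% in sham mouse 2 and 0 to 1.82% in the other 4 mice. In Col11a2, a collagen gene on chromosome 17, 4 CpGs from 34053327 to 34064086 had hemicastrated mouse 1 at 41.8 to 57.1% and the others at 91.2 to 100%.

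A run ends where a member with another pattern follows, and Cit, the gene of citron kinase in cell division, with 7 members the most of any gene, shows such changes. Cit, Gm31615 and Fanca were named after their values were seen. Its first 4 CpGs, from 115851061 to 115884952 of chromosome 5, were intermediate in hemicastrated mice 1 and 3 (41.4 to 47.8% and 41.8 to 46.3%) and between 93.1 and 100% in the others. At 115946636 sham mouse 2 joined them, with levels of 52.4, 91.2, 42.3, 98.0, 57.4 and 91.7%. At 115979318 the pattern was the mirror image of that, with 55.7, 0, 52.1, 1.79, 51.9 and 0%. At 116005831 sham mouse 1 alone was intermediate, at 55% on 20 reads, but the other strand of that CpG was at 90.5% in this mouse on 63 reads and between 92.9 and 97.5% in the others, so this last change rests on the shallower strand.

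A long noncoding RNA gene on chromosome 17, Gm31615, packed 4 CpGs of one pattern into 81 bp (88373916 to 88373997). Hemicastrated mouse 3 and sham mouse 2 were intermediate at all 4 (50 to 58.1% and 44.1 to 50%), and the other mice were between 90 and 98.2%. At 88379108, further along, hemicastrated mouse 3 was still intermediate (43.8%), while sham mouse 2 was at 0%. At 88379162 sham mouse 2 was at 97.1% and hemicastrated mouse 3 at 52.6%. In Fanca, a DNA repair gene, 4 CpGs over 25.8 kb had hemicastrated mouse 1 at 45.2 to 51.8% and sham mouse 3 at 43.6 to 52.5%, with the others between 94.0 and 98.7%.

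Patterns were less alike at longer distances. Among all pairs of members, the share with the same pattern was 93.9% within 100 bp (66 pairs), 60.5% from 100 bp to 10 kb (43), 52.1% from 10 to 100 kb (194), 23.7% from 100 kb to 1 Mb (1179) and 7.85% from 1 to 10 Mb (5824). It was 1.60% beyond 10 Mb (21697) and 1.08% on different chromosomes (428443). Mirrored patterns, with 0 and 100 exchanged and 50 kept, did not occur in the 66 and 43 pairs of both shortest distances. They made up 9.79% from 10 to 100 kb, 9.16% from 100 kb to 1 Mb, 5.05% from 1 to 10 Mb and 1.03% on different chromosomes. Pairs share CpGs, libraries and the frequent patterns of hemicastrated mouse 1, and the shares are given without a test.

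**Figure D3:**
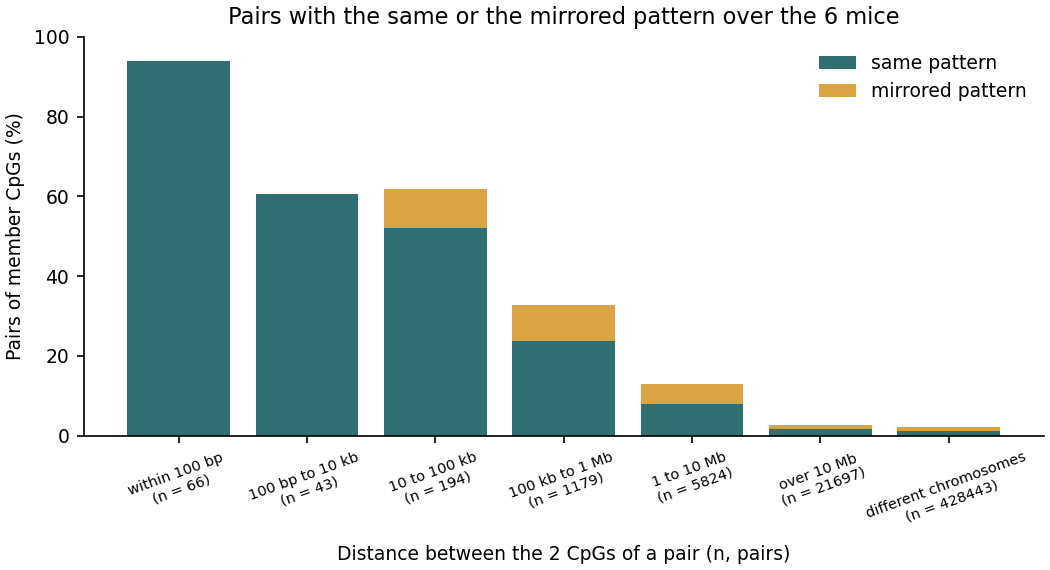
Bars give, for pairs of member CpGs binned by distance (x axis, with the number of pairs), the percent of pairs with the same pattern over the 6 mice (green) and, stacked on it, the mirrored pattern (yellow). The share with the same pattern goes from 93.9% within 100 bp to 1.08% on different chromosomes, and mirrored pairs first appear from 10 to 100 kb.

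A member was chosen without regard to other CpGs within 100 bp. Positions there that met the rule were members themselves and were left out of its neighbours, so the rule shaped the set of neighbours. Only single positions were left out: the other strand of a nearby member CpG still counted as a neighbour where it missed the rule. Measured neighbours, themselves no members and not the other strand of the same CpG, existed for 840 members (87.8%). They comprised 3900 positions, with a median of 4 per member. Their mean level was high: the median over members was 93.4%, and 723 members (86.1%) had neighbours at 80% or more, against 4 with neighbours below 20%. Over all measured positions 25.03% had a mean of 80% or more. Members lay in DNA with few CpGs, having a median of 5 within 100 bp, against 12 for all measured CpGs and 5 for measured CpGs at 80% or more.

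Neighbours, from which positions that met the rule were left out, mostly did not follow the member's steps. Of 66 pairs of members within 100 bp, 62 had the same pattern, and the member positions of such CpGs do not count as neighbours. The steps of the neighbours thus describe the remaining positions only, which can include the other strand of such a CpG. The step of the neighbours, their mean level in the libraries at the member's highest step minus that in the libraries at its lowest, had a median of 0.498 points (interquartile range -0.902 to 2.502), while the members' own steps had a median of 49.9 points (45.7 to 92.98). It was within 5 points of 0 at 697 of the 840 members (83.0%). Neighbours were at a median of 92.1% in libraries where the member was near 0, 93.3% where it was near 50 and 94.6% where it was near 100. At the 244 members with all 3 steps and neighbours, these medians were 93.8, 93.8 and 94.1%, beside 0, 49.4 and 95.4% at the members themselves.

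By class, the median step of the neighbours was 0.551 points for members at 50 and 100, 0.696 for 0 and 50, 0.376 for all 3 steps and 0.220 for 0 and 100. Their levels had medians of 94.4, 91.4, 93.6 and 92.8%. Closeness made little difference: the median step was 0.480 points for neighbours 2 to 10 bp away, 0.665 at 11 to 25 bp, 0.335 at 26 to 50 bp, 0.304 at 51 to 75 bp and 0.203 at 76 to 100 bp. The spread of the neighbours over mice was that of similar positions: those at 80% or more had a median span of 7.41 points, and all measured positions at 80% or more 8.16. Still, 124 of the 3900 neighbours (3.18%) spanned 40 points or more, against 0.895% of all measured positions. These can include the other strand of a nearby member CpG, which was not counted apart.

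The examples of the classes show the same flat surroundings. At Vdr, whose own levels went from 42.1 to 95.1%, the mean of 4 neighbours was 94.3, 97.9, 94.7, 96.4, 96.1 and 95.3%. At Ddost, with own levels from 0 to 98.3%, 6 neighbours averaged 97.1, 97.2, 95.1, 96.2, 95.6 and 95.9%. At Sgsm2, where sham mouse 2 alone was methylated, 10 neighbours averaged 94.0, 95.6, 94.7, 95.4, 94.96 and 94.3%. So hemicastrated mouse 1, which read 0% at the Ddost member, had the second highest mean of its neighbours.

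**Figure D4:**
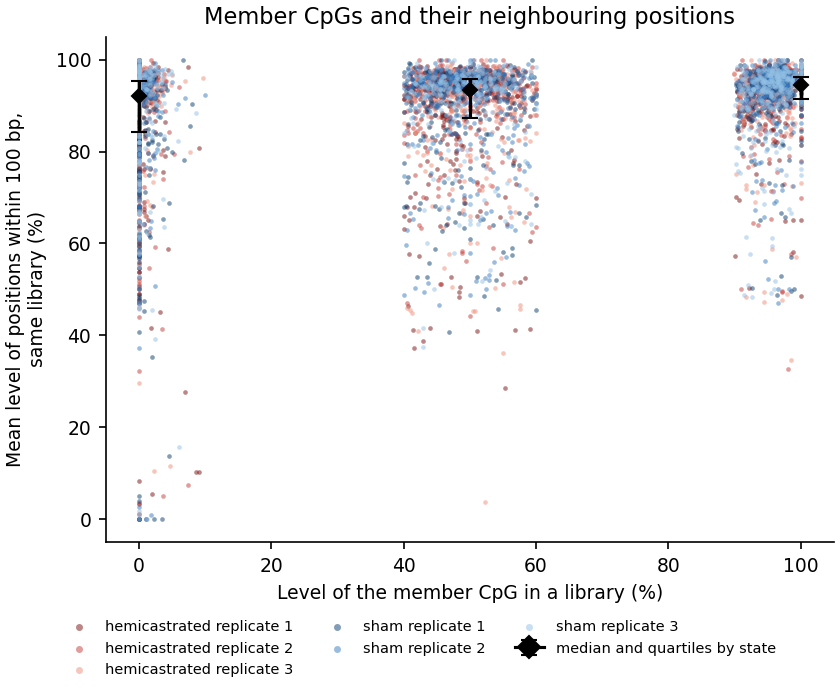
Each point is a member CpG in 1 mouse, with its own level in percent on the x axis. The y axis is the mean level of measured positions of other CpGs within 100 bp in the same mouse, members left out. Black diamonds and bars are medians and quartiles by step. The medians are 92.1, 93.3 and 94.6% at the steps near 0, 50 and 100, and most points lie above 80% at each step.

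A minority was surrounded by CpGs that moved with it. The step of the neighbours was 20 points or more at 45 of the 840 members (5.36%), 26 of them inside genes, and -20 points or less at 4. Neighbours of the 45 had a median level of 64.6%, against 93.6% for the other 795, and the median of the lowest read number was 42 against 56. Of the members in runs within 100 bp, 16 of the 60 with neighbours were among the 45, and of the other members 29 of 780. A member in such a run has another member CpG of the same pattern beside it by construction. The other strand of that CpG counted as a neighbour where it missed the rule. The shares are therefore not comparable, and their difference was not tested.

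Gm24463, printed above, had the widest such step among members with 3 or more neighbours, 57.3 points. Outside genes, 2 CpGs 38 bases apart on chromosome 2 (6090213 and 6090251) were at 9.09 and 8.70% in hemicastrated mouse 1 and between 40 and 60% in the other mice. The mean of their 4 shared neighbours was 10.2% in hemicastrated mouse 1 and 63.5, 60.1, 52.7, 48.8 and 63.8% in the others, so a whole cluster stepped at once. In Eml1, a microtubule-associated protein gene (108386678 of chromosome 12), the member was at 92.0, 52.5, 93.8, 92.6, 95.4 and 1.98%. Its 4 neighbours averaged 87.7, 68.7, 92.9, 86.9, 91.4 and 45.5%, following it at a smaller amplitude. Position 55061595 of chromosome 19, outside genes, was at 40.6, 3.70, 2.33, 42, 43.6 and 42.9%, and its 3 neighbours averaged 46.4, 4.94, 10.6, 52.7, 51.5 and 41.7%.

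In the 4 members with a step of -20 points or less, the neighbours moved against the member. In Itga11, an integrin gene (62708888 of chromosome 9), the member was at 42.1% in hemicastrated mouse 3 and at 0 to 0.704% in the others. The mean of 2 neighbours was 40.9% in that mouse and between 84.9 and 93.1% in the others. Near position 119132702 of chromosome 11, where the member was at 0, 57.9, 91.8, 0, 98.3 and 53.8%, the mean of 2 neighbours was 98.8, 93.6, 48.4, 95.9, 50 and 71.4%. These 4 were named after their values were seen.

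Where both strands of a CpG could be read, the other strand mostly spanned 40 points or more as well. The other strand of 678 member positions had 20 reads or more in every library. It was itself a member at 386, spanned 40 points or more without meeting the step rule at 213, spanned 20 to 40 points at 43 and less than 20 at 36. The 386 positions are 193 CpGs entered from both strands, while in the other sets a CpG enters once. The median difference of level between the strands was 2.95 points in the first set and 16.8 in the last. In these last 36 the other strand had a median level of 95.4%, and 35 of them had steps of 50 and 100.

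Those 36 also differed in read numbers. Reads on the other strand per read of the member, in libraries at the intermediate step relative to libraries at 100, had a median of 0.573 (interquartile range 0.521 to 0.632, 35 positions). The same ratio was 0.994 (250 positions) where the other strand was a member, 0.986 where it spanned 40 points or more and 0.915 at 20 to 40 points. Where the other strand was a member, each CpG entered from both strands with nearly inverse ratios. The median of 0.994 was thus held near equal reads by construction and is no reference for the others. In Matk (81262091 of chromosome 10), sham mouse 1 was at 47.1% on the member strand and the others at 91.4 to 97.1%. On the other strand sham mouse 1 was at 91.4%, on 70 reads, against 132, 170, 143, 172 and 134 reads in the others. Kcns1, a potassium channel gene, had 2 such CpGs on chromosome 2. At 164164689, levels were 97.5, 49.0, 43.6, 98.1, 46.0 and 53.7% on the member strand and 98.9, 94.7, 96.6, 98.3, 95.2 and 100% on the other, with 92, 57, 58, 120, 62 and 57 reads there.

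At 472 member positions the other strand lacked 20 reads in some library, though it was listed at 460. Among these, 61 had both 0 and 100 steps and reads on the other strand in every library at 100, and in 34 of the 61 the other strand had fewer than 3 reads in every library at 0. The rule asked for 20 reads on the member strand in every library, so a loss of this kind could not appear there. Over all members with the steps compared, not only the 61, depth-scaled reads of the member strand were also set side by side. At the intermediate step relative to 100 they had a median of 0.981 (649 CpGs), and at 0 relative to 100 a median of 0.982 (312 CpGs).

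**Figure D5:**
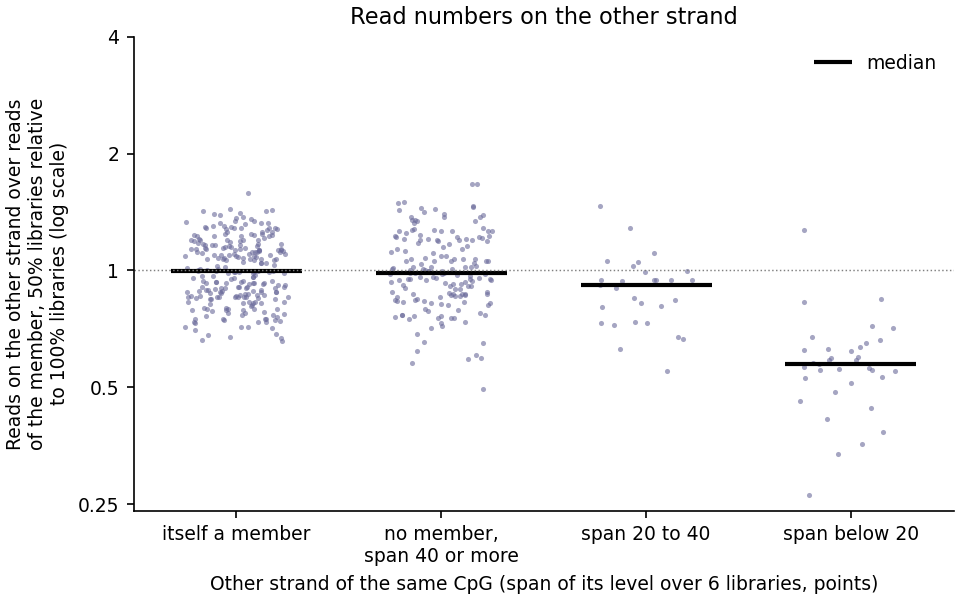
Each point is a member position with libraries at both 50 and 100; the y axis (log scale) is the number of reads on the other strand per read of the member in libraries at 50 relative to libraries at 100, and the x axis groups positions by the span of the other strand's level in percentage points. Medians (bars) are 0.994, 0.986, 0.915 and 0.573 from left to right. In the leftmost group each CpG enters from both strands with nearly inverse ratios, which holds its median near equal reads.

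Male mice have a single X chromosome, which allows a comparison outside the autosomes. The same rule found 7 CpGs (8 positions of 12893 measured) on chromosome X. An intermediate step occurred at 3 of the 7 (42.9%, Wilson 95% interval 15.8 to 74.95), against 928 of 957 on the autosomes (96.97%, 95.7 to 97.9). Of the X levels, 4 of 42 were intermediate (9.52%), against 34.2% of the autosomal levels. The other 4 X members had 0 and 100 only, such as Rtl9 (143094290), at 0, 100, 94.7, 0, 97.8 and 0%.

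The intermediate levels on X differed in their read numbers. At 20600243, outside genes, hemicastrated mouse 3 and sham mouse 3 were at 46.8 and 48.0% on 124 and 127 reads, against 56 to 77 reads in the mice near 100. Scaled for depth, this was 2.14 times the reads of the rest. At 67405614, sham mouse 1 was at 51.7% with 1.05 times the scaled reads of the rest.

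Inside genes lay 642 members (67.1%), in 531 genes, against 77.4% of measured CpGs. None fell in the chosen lists: 0 of 920 measured CpGs in 35 germ cell genes, 0 of 548 in 22 genes of testis somatic cells and 0 of 702 in 25 imprinted genes. Given 3 CpGs as the limit that a count of 0 allows, the shares could be up to 0.326, 0.547 and 0.427%, all above the 0.203% of all measured CpGs, so an absence could not be detected with this many CpGs.

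Removal of the left testis was compared with sham surgery over the members as a whole. The mean level per mouse was 52.2% ± 2.001 in hemicastrated and 51.5% ± 0.520 in sham mice (SD, n = 3 each), a difference of 0.707 points, less than the SD of the hemicastrated mice. Intermediate levels made up 34.4% ± 4.996 and 34.03% ± 4.03 (SD, n = 3 each). Both are descriptions, because the rule used these levels. The neighbours, which the rule touched only in that members were left out of them, were at 89.5% ± 0.623 and 89.9% ± 0.648 (SD, n = 3 each). Their difference of -0.442 points was smaller than the spread between mice. A two-sided exact permutation test gave p = 0.5, with 0.1 the lowest it can reach, and 1 when adjusted by Benjamini-Hochberg over the 3 group comparisons computed. The first difference was -0.172 points without hemicastrated mouse 2 and -0.267 points when levels came from summed counts. The second, of 0.383 points with all mice, was -2.00 without hemicastrated mouse 1 and -2.01 without sham mouse 3.

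At single positions, the levels of the groups did not overlap at 112 of 1150 members (9.74%), against 5.4 percent of all measured positions. Of these, 47 were higher in hemicastrated mice (2.57 percent of all positions) and 65 lower (2.84 percent). Since members were chosen for wide spans over the same libraries, nothing is read from this. edgeR's quasi-likelihood test with Benjamini-Hochberg adjustment at 0.05 called 613 of 636932 tested positions, or 0.0962 percent, 320 higher (0.0502 percent) and 293 lower (0.046 percent). Members made up 293 of the 613 calls (47.8%), and 25.5% of members were called, 167 higher and 126 lower. The rule and the test used the same levels, and the test took 1 common spread for all positions, so that a position's own spread between mice did not enter. With limma, 207 positions were called (83 higher and 124 lower), 78 of them members (37 and 41), and with edgeR's robust prior 353 positions, 139 of them members (77 and 62). The balance of directions was not stable, among members or over all positions. Without hemicastrated mouse 1, edgeR called 123 members higher and 128 lower, and over all positions 244 higher and 273 lower. Without hemicastrated mouse 2 it called 153 and 160 members, and 308 and 369 over all positions.

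Steps of the groups were fully apart at 24 CpGs (2.51%), 10 higher and 14 lower in hemicastrated mice, and 13 lay inside genes. The deepest of those inside genes are given as descriptions, since their group difference chose them. The share with steps apart was not computed over all measured CpGs. By the different measure of levels that do not overlap it was 5.4 percent of all measured positions, and nothing is read from the 24. In Il9r, the interleukin 9 receptor gene (32190953 of chromosome 11), levels were 0, 0 and 0.719% in hemicastrated and 46.4, 46.7 and 51.2% in sham mice, with 3 neighbours averaging between 63.4 and 65.6% in every mouse. Irak1bp1 (82838054 of chromosome 9) was at 0% in the hemicastrated and at 52.3, 54.95 and 50% in the sham mice. The lncRNA gene 4930412B13Rik (117850592 of chromosome 2) had the same form, at 1.59, 0 and 2.86% against 49.1, 48.1 and 43.8%.

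In the other direction, Adck1, a mitochondrial kinase-like gene (88424139 of chromosome 12), was at 95.1, 94.9 and 94.4% in hemicastrated and 50, 46.5 and 50% in sham mice. Rbms3, an RNA-binding protein gene (117387624 of chromosome 9), was at 94.6, 92.4 and 96.2% against 0, 55.9 and 50%, so the sham mice differed among themselves by a full step. Rps6kc1, a kinase gene (190901856 of chromosome 1), was lower, at 0, 51.8 and 57.6% against 94.2, 94.5 and 95.5%. At 5 of these 6 genes neighbours were measured, and their step was between -1.48 and 3.11 points.

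The remaining CpGs with the groups apart were shallower or outside genes, and those given here were named after their values were seen. In Col6a3, a collagen gene (90833366 of chromosome 1), levels were 94.4, 98.7 and 100% in hemicastrated and 48, 47.4 and 52.3% in sham mice. In Mov10l1, a helicase gene of the piRNA pathway of germ cells (89032805 of chromosome 15), they were 97.9, 94.9 and 96.5% against 0, 45 and 56.1%, on 39 reads or more. In Syne2, a nuclear envelope protein gene (76095579 of chromosome 12), they were 44, 93.2 and 46.4% against 0% in each sham mouse. Outside genes on chromosome 6, 3 CpGs at 51677923, 51788294 and 51788387 formed a run that separated the groups, with 41.3 to 57.6% in hemicastrated and 91.5 to 98.8% in sham mice. Neighbours of these CpGs had steps between -3.11 and 0.738 points.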

How the data were processed

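Per the labels' protocols, DNA was cut with MspI, fragments of 40 to 220 bp were converted with bisulfite, amplified by PCR and sequenced. Per the submitters' processing notes, the tools were Bismark and TopHat2 2.0.11 and the build was GRCm38; no source used here states the role of each tool or how duplicate reads were handled. For every library the authors deposited a methylated and an unmethylated read count per cytosine. The deposited level in percent equals the methylated count over their sum at every position. Of 144463 positions inside RefSeq promoter windows, 99.9931% lay in a CG on either strand. Adjacent positions were joined as 1 CpG. By rule, named CpGs came from the 6 runs with the most CpGs, the deepest per class and with groups apart, and the widest neighbour steps. That rule, the members and the gene lists were chosen with earlier results of these data known. Positions without calls of both kinds were left out of edgeR 4.0.16 (R 4.3.3), which modelled both counts with library columns and a group term, and limma 3.58.1 was an alternative. Both the rule and the model were run on simulated data as a check of the code. The rule was run on steps planted in flat data, with low read numbers raised. For the model, the simulated mice of a group shared 1 level per position, without spread between mice. Calls at positions whose levels differ between mice of a group were thus not checked. Other alternatives changed the read minimum, the 10-point window, the 100-bp distance, the weighting, the replicate block and the libraries. Intervals leave out PCR duplication, since reads carry no molecular identifiers. One item among the members found on chromosome X is counted but its values are not reported here.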

Additional observations from a re-analysis of the deposited data

How the results depend on the processing

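Of 163 alternative values, 34 moved or changed sign. With steps defined within 5 points the rule found 227 CpGs, and within 15 points 1640. The share of adjacent members with the same pattern was 17.8% within 5 points, 30.4% within 15 points and 31.1% with mirrored patterns counted, and ran from 27.4 to 29.8% when a library was left out, highest without sham replicate 3. Such omissions left 977 to 1060 CpGs. The group difference of the members' mean level was -0.242 points within 15 points and -0.267 points from summed counts, and ran from -0.172 without hemicastrated replicate 2 to 1.69 without hemicastrated replicate 1. That of the intermediate share ran from -2.01 without sham replicate 3 to 2.89 without hemicastrated replicate 2, and was -2.00 without hemicastrated replicate 1. The cause was not tested. edgeR's robust prior called 353 positions and limma 207, against 613, with 517 to 677 when a library was left out. An unadjusted p below 0.05 was found at 17221 positions. The replicate block, using numbers that only name the mice (same-numbered mice correlated at 0.0304, 0.0289 and -0.0141 in their deviations), called 523, of which 253 were members, and gave an exact p of 0.25 for the neighbours, the smallest possible being 0.25. Within 5 points, the classes were 22.5% for 50 and 100, 49.8% for 0 and 50, 23.3% for all 3 steps and 4.41% for 0 and 100. Depth limits the intermediate step: at 20 reads a true 50% stays inside the window in 73.7% of draws.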
